A study of Homo sapiens with 4 samples.

Results

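The mRNAs of 10 genes that encode feedback inhibitors of mitogen-activated protein kinase (MAPK) signalling were examined: the dual-specificity phosphatase genes DUSP1, DUSP4, DUSP5, DUSP6 and DUSP10, the Sprouty genes SPRY1, SPRY2 and SPRY4, and the Sprouty-related genes SPRED1 and SPRED2. They were found by gene symbol, and all 10 were present among the 42169 gene rows of the count table. RNA came from Huh7, a cell line derived from a human liver tumour. Clone 1 is the control, labelled wild type, and clone 18 lacks Brf1 and TTP (double knockout, DKO); each gave 2 libraries. Cells of both clones received DMSO for 3 h and then 5 µg/ml actinomycin D in DMSO for 10 min before harvest. Actinomycin D blocks transcription, so every level below was read shortly after synthesis of new RNA had been stopped. Each genotype is 1 clone, and differences between clones and effects of the knockout cannot be told apart.

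MAPK pathways carry signals from growth factor receptors, through Ras, Raf and MEK, to the kinase ERK, and parallel cascades end in the kinases JNK and p38. ERK induces genes whose products then turn the pathway down. DUSP proteins remove phosphate from the activated kinases, Sprouty proteins act between the receptors and Raf, and SPRED proteins hold back Ras by bringing neurofibromin to the membrane. Many of these mRNAs are short-lived. TTP (gene ZFP36) and Brf1 (here butyrate response factor 1, gene ZFP36L1) recognise AU-rich stretches of the 3′ UTR and bring in deadenylases, which shorten the poly(A) tail.

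The heptamer TATTTAT is the core of such an element, and it was searched in the longest annotated 3′ UTR of each gene (sense strand, overlapping matches counted, GENCODE 29 on hg38). It was present in 7 of the 10 genes, against 36.1% of the 11886 tested protein-coding genes with an annotated 3′ UTR. SPRED1 held 5 matches, DUSP4 and SPRY4 4 each, DUSP1 and SPRY1 3 each, SPRY2 2 and SPRED2 1. DUSP5, DUSP6 and DUSP10 held none. At least 3 matches were present in 5 of the 10 genes and in 7.15% of the tested coding genes. Long 3′ UTRs have more room for a match: that of SPRED1 spans 5585 bases, whereas DUSP1 has its 3 matches in 672 bases. The shorter pentamer ATTTA was present in 9 of the 10 genes (all but DUSP5) and in 74.5% of tested coding genes. The nonamer TTATTTATT was present only in DUSP1 (2 matches) and DUSP4 (1 match), and in 9.38% of tested coding genes. A match is a description of the letters, and binding was not measured.

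The 3 Sprouty genes are shown because their last heptamers have a common layout. Each ends in a pair of heptamers whose starts lie 32 (SPRY1), 36 (SPRY2) and 28 (SPRY4) bases apart, and the last heptamer starts 139, 128 and 132 bases before the annotated end of the 3′ UTR. Windows of 30 bases are given 5′ to 3′ on the mRNA strand, written as DNA, with the heptamer in capitals and sites numbered from the stop codon.
SPRY1 site 2 (chr4:123403579-123403608, plus strand): attgtaaagaaTATTTATtatgcgaatctc
SPRY1 site 3 (chr4:123403611-123403640, plus strand): ttattttatggTATTTATtgcaaaagactg
SPRY2 site 1 (chr13:80336121-80336150, minus strand): agtgtaaagaaTATTTATttgaagttttat
SPRY2 site 2 (chr13:80336085-80336114, minus strand): ataaaaaagaaTATTTATtttaagaggcat
SPRY4 site 3 (chr5:142310568-142310597, minus strand): tttgtatagaaTATTTATtttgaagctcta
SPRY4 site 4 (chr5:142310540-142310569, minus strand): tattttaatagTATTTATtttagaaagtct

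Site 2 of SPRY1 and site 1 of SPRY2 share an unbroken run of 17 bases, tgtaaagaaTATTTATt. The 12 bases agaaTATTTATt are the longest stretch around a heptamer that the 3′ UTRs of all 3 Sprouty genes share, and lie in site 3 of SPRY4. This 12-base run occurred in the longest 3′ UTR of 27 of the 11886 tested coding genes (0.227%), SPRY1, SPRY2 and SPRY4 among them. A pair of neighbouring heptamers that do not overlap, with starts at most 40 bases apart, was found in 1.64% of tested coding genes. Among the 10 genes the same 3 had one. Pairs of overlapping heptamers were left out of this share. The run and the distance were chosen after the sites had been seen. Starts somewhat further apart were found in SPRY4 (sites 1 and 2, 44 bases), SPRED1 (sites 4 and 5, its last, 60 bases) and DUSP4 (sites 1 and 2, 65 bases). For comparison, the sites of DUSP1 lie 268 and 193 bases apart:
DUSP1 site 1 (chr5:172768642-172768671, minus strand): gggctggtcctTATTTATttaacttcaccc
DUSP1 site 2 (chr5:172768374-172768403, minus strand): agaatatacctTATTTATttttgtgtaggt
DUSP1 site 3 (chr5:172768181-172768210, minus strand): tgtttgctgatTATTTATgacctgaaataa

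**Figure D1:**
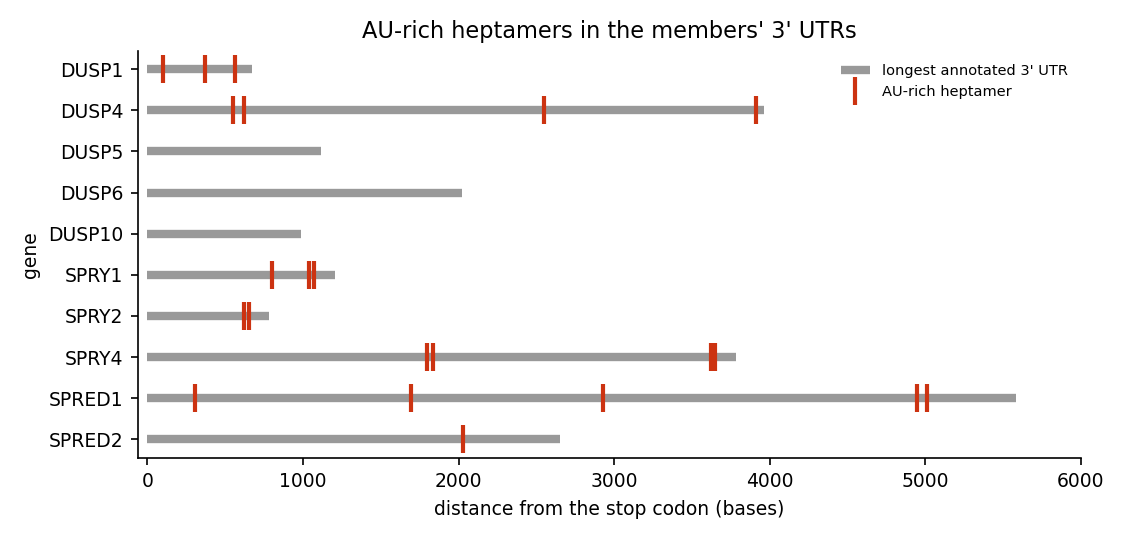
Position of each TATTTAT heptamer (red ticks) along the longest annotated 3′ UTR of each gene (grey bars), in bases from the stop codon. SPRY1, SPRY2 and SPRY4 each end in a pair of heptamers with starts at most 40 bases apart, and SPRED1 in a pair 60 bases apart. DUSP5, DUSP6 and DUSP10 have no heptamer.

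Counts on genes totalled between 9685798 and 16430228 per library, and a count of 3 corresponded to 0.183 to 0.310 CPM (counts scaled to a common library total). The 10 mRNAs had between 269 and 2599 counts per library, far above that floor. Whether the 2 libraries of a clone were grown separately is not in the labels, so the spread behind the p-values may be technical. Hepatocyte markers summed to 24460 to 27951 CPM with all 8 of 8 detected in every library, and of these AFP fell (-1.13, edgeR adjusted p = 0.0159) and TTR rose (0.78, edgeR adjusted p = 0.0297) in DKO. Endothelial markers summed to 0.160 to 0.292 CPM, with CDH5, VWF and KDR at 0 throughout. Among blood cell markers CD3E and HBB were at 0 in every library, and LYZ supplied nearly all of the 75.2 to 124 CPM. Fibroblast markers summed to 95.5 to 143 CPM, mostly COL1A2. The mRNAs of the targeted genes did not pass the test: ZFP36 differed by 0.48 (SE 0.21, edgeR adjusted p = 0.207) and ZFP36L1 by 0.13 (SE 0.20, edgeR adjusted p = 0.775) on the log2 scale, both turning negative with spike-in scaling (-0.17 and -0.50). Since the sources used here do not give the kind of mutation, these levels do not check the genotype.

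Of the 10 genes, SPRY1 rose and DUSP4 fell in DKO, and 8 did not pass the test. The test was edgeR's quasi-likelihood test across 13359 genes with Benjamini-Hochberg adjustment, and passing means an adjusted p under 0.05. By the same rule 5.37% of all tested genes passed, 2.24% higher and 3.14% lower. At an unadjusted p under 0.05, 4 of the 10 were below the limit (1 higher, 3 lower), and so were 20.2% of all tested genes. All 10 genes entered the test, and their median log2 fold change was -0.02, against 0.0015 for all genes tested. In CPM, the clones were fully apart for 5 of the 10 genes: SPRY1 and DUSP6 were higher in both DKO libraries, and DUSP4, DUSP5 and SPRY2 lower. Among all tested genes 49.9% were fully apart (23.7% higher and 26.2% lower), so 5 of 10 is near the background. For a single gene, 2 libraries against 2 cannot reach an exact 2-sided permutation p under 0.333.

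**Figure D2:**
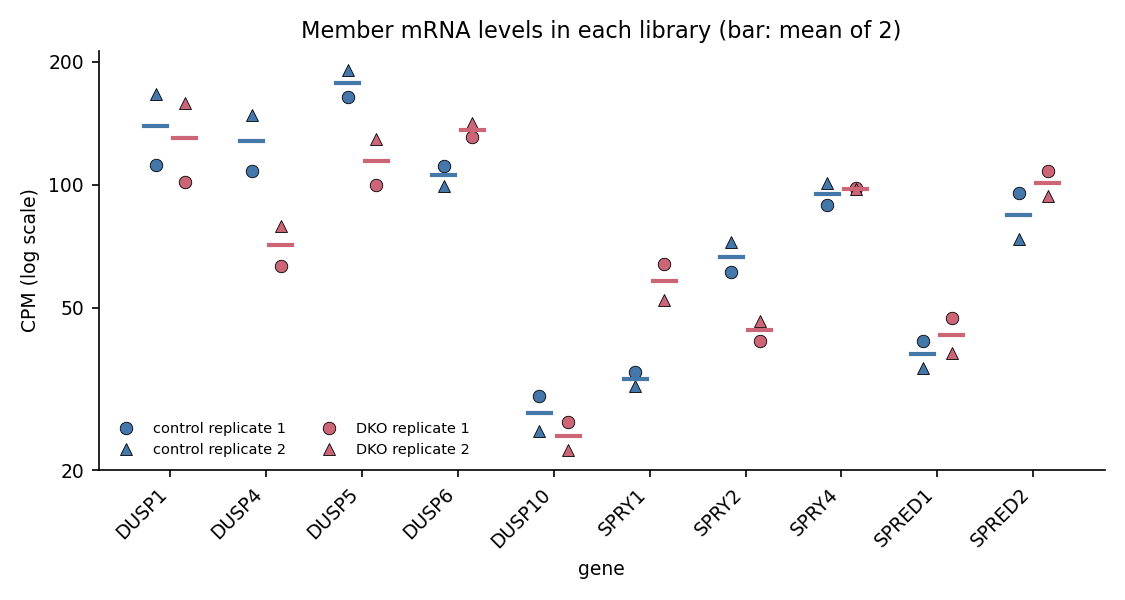
Level of each mRNA in every library, in CPM on a log axis (circles replicate 1, triangles replicate 2, blue control, red DKO, bars the mean of 2 libraries). DUSP4, DUSP5 and SPRY2 lie lower and SPRY1 and DUSP6 higher in both DKO libraries, and the 2 libraries of a clone lie furthest apart for DUSP1.

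DUSP4 encodes a nuclear phosphatase that acts on ERK and JNK. Its mRNA (chromosome 8, 29333064 to 29350668, hg38) was at 108 and 148 CPM in the control libraries and at 63.1 and 79.0 CPM in the DKO libraries. Both DKO values lay below both control values, and the control mean of 128 ± 28.5 CPM was 1.80-fold the DKO mean of 71.0 ± 11.2 CPM (SD, n = 2). The log2 fold change was -0.84 (SE 0.22, 95% interval -1.31 to -0.37, edgeR adjusted p = 0.0384). This held without control replicate 1 (-1.08, edgeR adjusted p = 7.43e-05) and was lost without control replicate 2 (-0.56, edgeR adjusted p = 0.148), without DKO replicate 1 (-0.67, edgeR adjusted p = 0.502) or without DKO replicate 2 (-1.04, edgeR adjusted p = 0.121). In bulk RNA, fewer cells with the mRNA and less of it per cell cannot be told apart. Of the 5 DUSP genes among the 10, DUSP4 holds the most heptamers, 4, and also has the longest 3′ UTR (3962 bases). A link between heptamers and its level was not tested.

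DUSP5, a nuclear phosphatase specific for ERK, had the highest count level of the 10 in the control clone. Its mRNA (chromosome 10, 110497838 to 110511544) was at 163 and 191 CPM in the control libraries and at 99.5 and 129 CPM in the DKO libraries, without overlap. The log2 fold change of -0.62 (SE 0.21, 95% interval -1.06 to -0.18, unadjusted p = 0.00878) did not pass across all genes (edgeR adjusted p = 0.0971), but did without control replicate 1 (-0.76, edgeR adjusted p = 0.00957). DUSP5 has neither the heptamer nor the pentamer in its 3′ UTR.

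DUSP6, the cytoplasmic phosphatase of ERK, had values on the other side. Its mRNA (chromosome 12, 89347232 to 89353271) was at 111 and 99.3 CPM in the control libraries and at 131 and 141 CPM in the DKO libraries. The clones did not overlap, but the log2 fold change of 0.38 (SE 0.19, 95% interval -0.02 to 0.79) did not pass (edgeR adjusted p = 0.272) and turned to -0.30 when libraries were scaled to their spike-ins. An antisense gene, AC024909.2, shares 1875 exon bases with DUSP6 and was not analysed here. As the sources used here do not give the strand setting of the counting, part of the DUSP6 counts could belong to that gene.

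DUSP1, an immediate early phosphatase acting on p38, JNK and ERK, varied most between libraries of a clone. Its mRNA (chromosome 5, 172768090 to 172771195) was at 112 and 167 CPM in the control libraries and at 102 and 158 CPM in the DKO libraries. The values of the clones overlapped, and in each clone replicate 2 exceeded replicate 1, by 1.49-fold in control and 1.56-fold in DKO. The log2 fold change was -0.09 with a wide interval (SE 0.25, 95% interval -0.62 to 0.44, edgeR adjusted p = 0.885), and it turned positive when control replicate 2 (0.26) or DKO replicate 1 (0.21) was left out. Between libraries of the same number, DKO over control was -0.14 (replicate 1) and -0.075 (replicate 2) on the log2 scale, though the labels state no pairing. The mitochondrial share of gene counts was 2.53% (control) and 3.59% (DKO) in replicate 1 and 0.448% and 1.16% in replicate 2, and their part in the DUSP1 values was not tested. DUSP10, a phosphatase of p38 and JNK (chromosome 1, 221701424 to 221742176), was the lowest of the 10 in counts, at 30.4 and 24.9 CPM in control and 26.2 and 22.5 CPM in DKO. These values overlapped (log2 fold change -0.17, SE 0.21, 95% interval -0.63 to 0.28, edgeR adjusted p = 0.708).

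**Figure D3:**
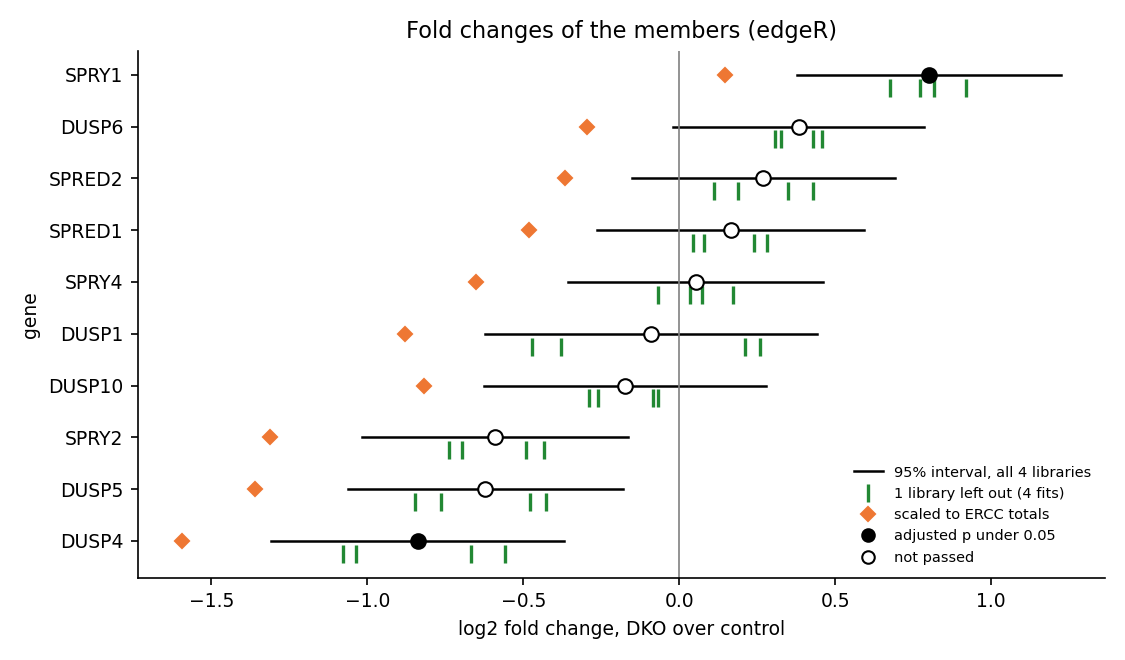
Log2 fold change of each mRNA, DKO over control, with all 4 libraries (circles, filled where the adjusted p is under 0.05; lines, 95% interval), with 1 library left out (green ticks) and scaled to ERCC totals (orange diamonds). SPRY1 at 0.80 and DUSP4 at -0.84 are the filled points, and with ERCC totals SPRY1 is at 0.14 and DUSP4 at -1.59.

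Among the Sprouty genes, SPRY1 rose while SPRY2 had lower values in DKO and SPRY4 had overlapping values. SPRY1 mRNA (chromosome 4, 123396795 to 123403760) was at 34.7 and 32.2 CPM in the control libraries and at 63.8 and 52.2 CPM in the DKO libraries. The DKO mean of 58.0 ± 8.21 CPM was 1.73-fold the control mean of 33.5 ± 1.75 CPM (SD, n = 2), and the clones did not overlap. The log2 fold change was 0.80 (SE 0.20, 95% interval 0.38 to 1.22, edgeR adjusted p = 0.0293). Leaving out control replicate 1 gave 0.82, and leaving out control replicate 2 gave 0.77. The call was lost without DKO replicate 1 (0.68) or without DKO replicate 2 (0.92).

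SPRY2 mRNA (chromosome 13, 80335976 to 80340951), which shares the 17-base run around its heptamer with SPRY1, was at 61.0 and 72.2 CPM in control and at 41.5 and 46.4 CPM in DKO. The clones did not overlap, with a log2 fold change of -0.59 (SE 0.20, 95% interval -1.02 to -0.16, unadjusted p = 0.00976) that did not pass across all genes (edgeR adjusted p = 0.103). With 1 library left out it lay between -0.74 and -0.43. SPRY4 mRNA (chromosome 5, 142310427 to 142326455) was at 88.9 and 101 CPM in control and at 97.9 and 97.6 CPM in DKO, with the DKO values between the control values. Its log2 fold change was 0.05 (SE 0.19, 95% interval -0.36 to 0.46, edgeR adjusted p = 0.914), and -0.65 with spike-in scaling. The antisense gene SPRY4-AS1 overlaps the SPRY4 locus without sharing exon bases. It had 8 and 12 counts in control and 26 and 35 in DKO (log2 fold change 1.36, SE 0.43, edgeR adjusted p = 0.0794).

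The ratio of 2 genes within a library does not depend on how libraries are scaled. For each SPRY2 count there were 0.569 and 0.446 SPRY1 counts in control and 1.54 and 1.12 in DKO. SPRY2 thus had more counts than SPRY1 in both control libraries and fewer in both DKO libraries, and the mean ratio was 2.62-fold higher in DKO (0.507 ± 0.0864 against 1.33 ± 0.293, SD, n = 2). Of the counts of the 3 Sprouty genes together, SPRY4 held 48.2% and 49.1% in control and 48.2% and 49.8% in DKO. SPRY1 held 18.8% and 15.7% in control and 31.4% and 26.6% in DKO. The summed Sprouty level was 185 and 205 CPM in control and 203 and 196 CPM in DKO, so the sum and the SPRY4 share overlapped between clones, and the SPRY1 and SPRY2 shares did not.

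Ratios were also taken among DUSP4, DUSP5 and DUSP6. DUSP6 had 1.03 and 0.671 counts per DUSP4 count in control and 2.08 and 1.79 in DKO, a mean ratio 2.27-fold higher in DKO. Per DUSP5 count DUSP6 had 0.681 and 0.520 in control and 1.32 and 1.09 in DKO, a 2.01-fold difference. DUSP4 per DUSP5 count, at 0.659 and 0.775 in control and 0.634 and 0.613 in DKO, did not overlap either but differed less (0.870-fold). These pairs of genes were chosen after their levels had been seen, and the ratios are given without a test. In CPM, SPRY1 and DUSP6 were higher and SPRY2, DUSP4 and DUSP5 lower in both DKO libraries. A ratio of a higher to a lower gene therefore had to separate the clones.

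**Figure D4:**
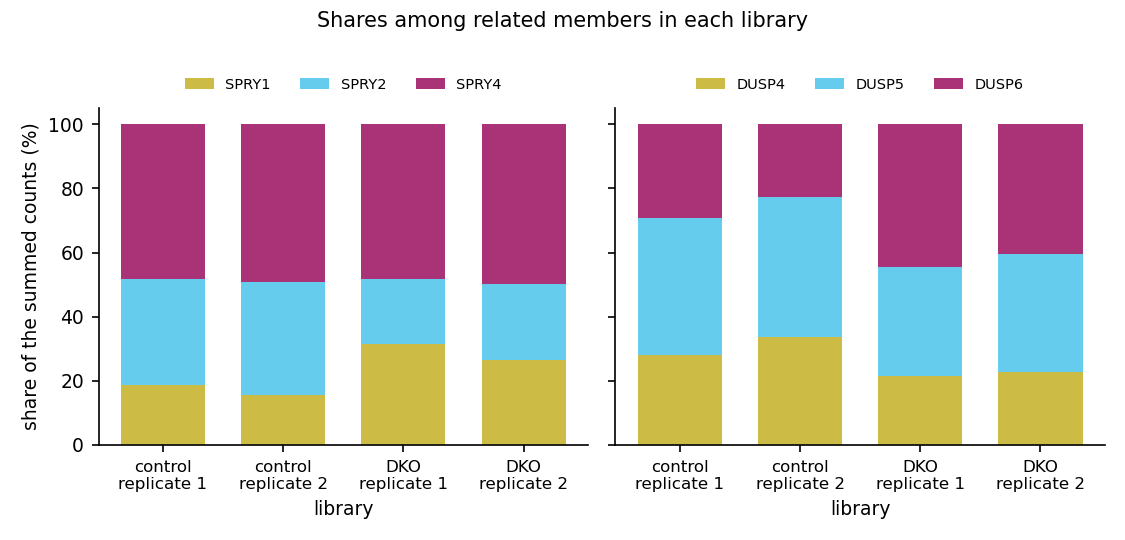
Share of each gene in the summed counts of SPRY1, SPRY2 and SPRY4 (left) and of DUSP4, DUSP5 and DUSP6 (right), in percent, for each library. In both DKO libraries the shares of SPRY1 and DUSP6 are larger and those of SPRY2, DUSP4 and DUSP5 smaller than in both control libraries, and SPRY4 stays between 48.2% and 49.8%.

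The SPRED mRNAs did not pass. SPRED1, mutated in Legius syndrome (chromosome 15, 38252326 to 38357249), was at 41.5 and 35.6 CPM in control and at 47.1 and 38.7 CPM in DKO, with overlap between the clones (log2 fold change 0.16, SE 0.20, 95% interval -0.26 to 0.59, edgeR adjusted p = 0.706). Its relative SPRED2 (chromosome 2, 65310851 to 65432637) was at 95.4 and 73.4 CPM in control and at 108 and 93.7 CPM in DKO, also with overlap (0.27, SE 0.20, 95% interval -0.15 to 0.69, edgeR adjusted p = 0.482). With spike-in scaling both values were negative, -0.48 for SPRED1 and -0.37 for SPRED2. The 5 heptamers of SPRED1 are the largest number among the 10 genes.

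Per kilobase of annotated exons, the order of the levels in control was DUSP1 (mean 68.9 CPM per kb), DUSP5 (67.8), DUSP6 (22.7), SPRY2 (21.9), DUSP4 (17.6), SPRED2 (16.4), SPRY4 (14.4), DUSP10 (9.49), SPRY1 (8.44) and SPRED1 (4.67). Only 3 steps in that order separated all libraries: DUSP5 from DUSP6, SPRY4 from DUSP10, and SPRY1 from SPRED1. In DKO the 3 Sprouty mRNAs had almost the same level per length, with 14.9 for SPRY4, 14.6 for SPRY1 and 14.5 for SPRY2, and their libraries overlapped. In control, by contrast, all libraries of SPRY2 lay above those of SPRY4, and those of SPRY4 above those of SPRY1. DUSP4 was at 9.79 CPM per kb in DKO, DUSP5 at 43.7 and DUSP6 at 29.4.

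A clone can differ by gains or losses of chromosome segments, so the 50 tested genes nearest to each gene were read from the same fit. Their median log2 fold change was 0.05 around DUSP4 and 0.21 around SPRY1, and over the 10 genes it lay between -0.09 (SPRY2) and 0.23 (DUSP10). With the 20 nearest genes the range was -0.14 to 0.25. That median lay on the same side of 0 as the gene for DUSP4 (-0.066), SPRY1 (0.21), SPRY2 (-0.14), SPRY4 (0.21), SPRED1 (0.12) and SPRED2 (0.23). It lay on the other side for DUSP1 (0.063), DUSP5 (0.17), DUSP6 (-0.071) and DUSP10 (0.25). The 50 nearest genes gave 0.01 around SPRED1 and 0.15 around DUSP5. ERCC spike-in RNA took 1.47% and 0.946% of all counts in control and 1.62% and 2.10% in DKO, and with ERCC totals as library sizes the median of all genes moved to -0.68. On that scale 0 of the 10 genes passed with edgeR, and 2.46% of all tested genes did; SPRY1 was at 0.14 (edgeR adjusted p = 0.836) and DUSP4 at -1.59 (edgeR adjusted p = 0.0838). The directions given here are therefore relative to the median gene.

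The other genes of the pathway were read from lists chosen by their role. Of 7 further MAPK phosphatase, SPRY and SPRED genes, SPRY3 was at 0 counts in every library, SPRED3 and DUSP2 were too low for the test, and the 4 tested phosphatase genes had negative values between -0.61 and -0.24, with a median of -0.52. Among all 13359 tested genes, 6660 had negative values and 20.2% had an unadjusted edgeR p under 0.05 in either direction. None of the 4 phosphatase genes passed with edgeR, DESeq2 or limma-voom, and 2 were lower at that unadjusted limit. The leading gene DUSP16, a phosphatase of JNK and p38, was at 108 and 111 CPM in control and 68.0 and 74.5 CPM in DKO (log2 fold change -0.61, SE 0.19, edgeR adjusted p = 0.0800). Its value lay between -0.70 and -0.52 with 1 library left out. Of the 13 atypical DUSP genes, which lack the kinase-binding part of the MAPK phosphatases, 9 were tested and none passed with edgeR, DESeq2 or limma-voom, nor at an unadjusted edgeR p under 0.05 (median 0.14). DUSP26 led this list at 0.91 (SE 0.47, edgeR adjusted p = 0.301), on only 6 to 29 counts per library.

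Of 17 tested further inhibitors of receptors and Ras, none passed with edgeR, DESeq2 or limma-voom, and 1 was higher at an unadjusted edgeR p under 0.05 (median 0.02). That gene was CBL, a ubiquitin ligase of activated receptors, at 0.45 (SE 0.20, edgeR adjusted p = 0.213), which turned to -0.21 with spike-in scaling. Upstream of the inhibitors, 2 of 12 tested ligand genes rose, 1 fell and 9 did not pass (median 0.34). The epidermal growth factor gene EGF rose from 3.30 and 3.04 CPM to 10.6 and 11.5 CPM (log2 fold change 1.82, SE 0.28, edgeR adjusted p = 0.00162). FGF19, a fibroblast growth factor that signals in the liver, rose from 59.9 and 83.7 CPM to 119 and 148 CPM (0.91, SE 0.22, edgeR adjusted p = 0.0281). It did not pass without DKO replicate 1 (1.07, edgeR adjusted p = 0.0549) or without DKO replicate 2 (0.71, edgeR adjusted p = 0.374).

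The EGF receptor ligand gene BTC, betacellulin, fell from 3.61 and 3.84 CPM to 1.56 and 0.730 CPM (-1.77, SE 0.41, edgeR adjusted p = 0.0223), on 12 to 48 counts per library. It did not pass with DESeq2 (DESeq2 adjusted p = 0.0538) or without DKO replicate 2 (-1.27, edgeR adjusted p = 0.378). Of 18 receptor and adaptor genes 1 fell, PDGFRA (-2.07, edgeR adjusted p = 0.000102), and 17 did not pass. With DESeq2, 2 of the 18 passed, and with limma-voom 1. In the Ras, Raf, MEK and ERK cascade 1 of 16 fell and 15 did not pass, with a median of -0.03. MRAS, a Ras-related GTPase that activates Raf together with SHOC2, fell from 11.9 ± 0.0848 to 5.12 ± 0.0784 CPM (SD, n = 2; log2 fold change -1.21, SE 0.26, edgeR adjusted p = 0.0134), and did not pass without DKO replicate 1 (-1.17, edgeR adjusted p = 0.121) or without DKO replicate 2 (-1.25, edgeR adjusted p = 0.116).

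In the JNK and p38 cascade 1 of 13 rose and 12 did not pass (median -0.03). The p38 delta gene MAPK13 rose from 4.96 and 4.56 CPM to 11.1 and 14.2 CPM (1.43, SE 0.27, edgeR adjusted p = 0.00663). It did not pass without DKO replicate 2 (1.21) or with spike-in scaling (0.73, edgeR adjusted p = 0.373). Among 15 tested genes that ERK induces, IER3 rose (1.31, edgeR adjusted p = 0.00332) and 14 did not pass. IER3 did not pass without DKO replicate 2 (1.03) or with spike-in scaling (0.57, edgeR adjusted p = 0.461). With DESeq2, 2 of these 15 passed, and with limma-voom 1. Positive values were found in 12 of the 15 (median 0.26) and in 6699 of all 13359 tested genes. With spike-in scaling only 2 of the 15 were positive, and there the median of all tested genes was -0.68. Across the 104 tested genes of these other lists 7 passed, 4 higher and 3 lower, and with spike-in scaling 3 passed, all lower. These shares of 6.73% and 2.88% are near those of all tested genes, 5.37% and 2.46%.

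**Figure D5:**
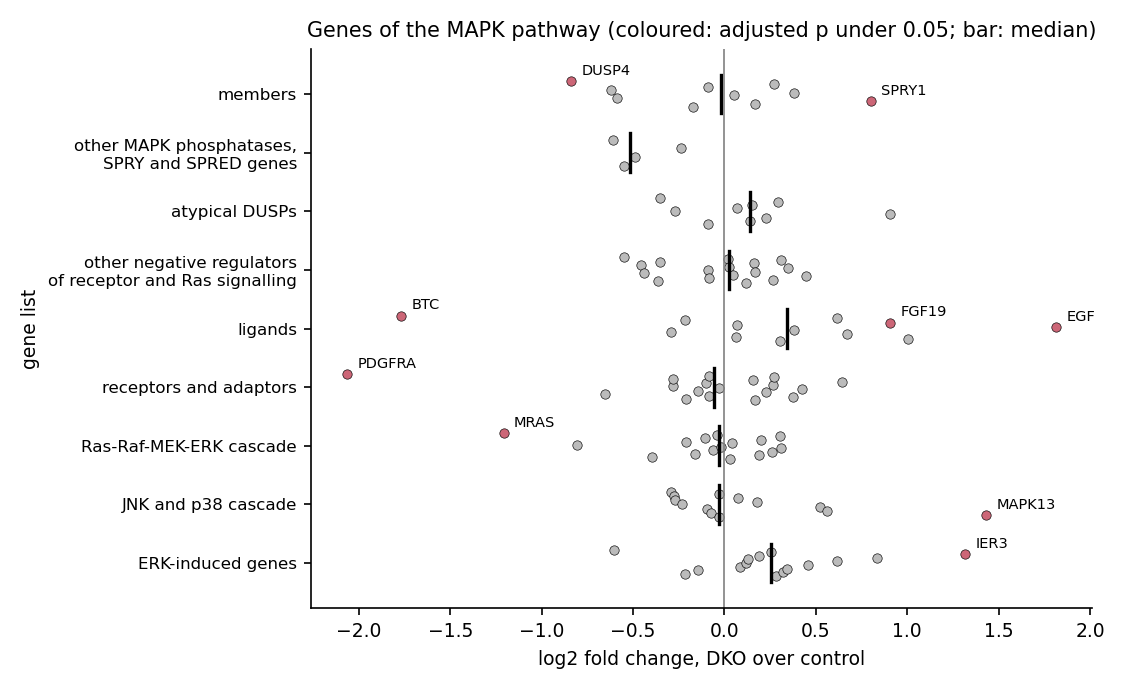
Log2 fold change, DKO over control, of each tested gene of the MAPK pathway lists (points, coloured where the adjusted p is under 0.05; bars, the list's median). SPRY1 and DUSP4 lie on either side of a median near 0. The 4 further MAPK phosphatase genes all lie below 0, as do 6660 of all 13359 tested genes.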

How the data were processed

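Total RNA with added ERCC spike-ins was depleted of ribosomal RNA and sequenced as reads of 80 bases from 1 end with a kit that keeps the strand, per the labels' protocols. The values the authors deposited are raw counts of reads for each gene in each library. Per the submitters' processing notes the build was hg38 and the tools included STAR 2.5.3a, Subread 1.6.3 with featureCounts, and DESeq2. The sources used here give no annotation, strand setting or handling of multiply matching reads.

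The table held 42261 features, and its 92 spike-ins did not count towards library sizes. Genes were filtered with filterByExpr, scaled by TMM and tested in edgeR 4.0.16 (R 4.3.3) by the quasi-likelihood test, with group as the only term, on all 4 libraries. The SE is the log2 fold change divided by the square root of F, and intervals use its t distribution. CPM values use library totals. The script was tested on simulated data. Alternatives were RLE scaling, DESeq2 1.42.0, limma-voom (limma 3.58.1), no filter, ERCC totals, the replicate number as a block and leaving out each library. Symbols were matched to GENCODE 29, where all 10 genes had exactly 1 match. Sequences are from its transcripts.

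The members and lists were chosen with earlier results of these data known. Named genes are the 10 members, ZFP36, ZFP36L1, and of each other list the genes past the threshold or, where none passed, the leading one. Libraries of a clone differed by more than counting noise (chi-square per degree of freedom 33.6 and 27.1).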

Additional observations from a re-analysis of the deposited data

How the results depend on the processing

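Over all genes, 718 passed (299 higher, 419 lower), against 1194 without a filter (561 and 633), 329 with ERCC totals (22 and 307) and 4021 under a replicate block (1998 and 2023). Leaving out 1 library gave 218 to 2172 (105 to 1028 higher, 107 to 1144 lower). Of the 10 genes, 2 passed (1 and 1), against 0 with ERCC totals (0 and 0) and 0 to 4 without 1 library (0 to 1 higher, 0 to 3 lower). With RLE scaling, DESeq2, limma-voom and no filter, SPRY1 and DUSP4 were the genes that passed. With the replicate block 5 of the 10 passed, DUSP6 and SPRY1 higher and DUSP4, DUSP5 and SPRY2 lower (2 and 3), and so did ZFP36 (0.49, edgeR adjusted p = 0.00432), DUSP16 (-0.61, edgeR adjusted p = 1.57e-05) and CBL (0.44, edgeR adjusted p = 0.00397). The labels state no pairing, deviations of same-numbered libraries correlated at 0.470, and 2 pairs are too few to settle it. In the other pathway lists 7 passed (4 and 3), against 12 without a filter (7 and 5), 3 with ERCC totals (0 and 3), 34 with the replicate block (21 and 13) and 2 to 18 without 1 library (1 to 10 higher, 1 to 8 lower). The median of the 10 genes was -0.02, and it was -0.74 with ERCC totals and -0.068 to 0.10 without 1 library. The nonamer TTATTTATT was present in 2 of the 10 genes, where the heptamer was present in 7.

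With ERCC totals the sign turned for DUSP6 (-0.30), SPRY4 (-0.65), SPRED1 (-0.48), SPRED2 (-0.37), ZFP36 (-0.17), ZFP36L1 (-0.50) and CBL (-0.21). Without 1 library it turned for DUSP1 (range -0.47 to 0.26), SPRY4 (-0.068 to 0.17) and ZFP36L1 (-0.0099 to 0.26). The cause of these changes was not tested. A fit without 1 library leaves a clone with 1 library, which is assumed to vary like the other. The 10 genes had at least 269 counts per library.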
